A study of Mus musculus with 21 samples.

Results

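The 10 nuclear genes followed here, in RNA-seq of mouse midbrain, control the production of mitochondria. They were the coactivators Ppargc1a and Ppargc1b, the transcription factors Nrf1, Gabpa and Esrra, the mitochondrial DNA factors Tfam, Tfb2m and Polg, and the deacetylases Sirt1 and Sirt3. The genes were chosen by name, with earlier results of these data known. There were 33829 genes in the deposited table of the pre-treatment experiment and 55385 in that of the delayed treatment experiment, 55592 in all. All 10 members were listed in both and passed the filter on low counts in both. The study followed several of the encoded proteins by western blot, and the question here was whether their messenger RNAs differed between the groups.

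The 21 mice were male C57BL/6 animals aged 6 weeks per the labels, in 7 groups of 3, and every injection was intraperitoneal. MPTP is a toxin that the brain converts to a compound which dopaminergic neurons take up and which inhibits respiratory complex I. Irisin is a secreted fragment of the muscle membrane protein FNDC5. In the pre-treatment experiment, control mice received ddH2O for 10 days. Its MPTP mice received ddH2O for 5 days and then MPTP at 30 mg/kg/day for 5 days, and a further group received irisin at 200 μg/kg/day for 5 days and then MPTP for 5 days. In the delayed treatment experiment, control mice received ddH2O for 10 days and irisin mice received ddH2O for 5 days and then irisin for 5 days. Its MPTP mice received MPTP for 5 days and then ddH2O for 5 days, and the last group received MPTP for 5 days and then irisin for 5 days. MPTP was thus the last agent given in the pre-treatment experiment, and was followed by 5 days of ddH2O or irisin in the delayed treatment experiment. The labels give the tissue as midbrain, and the methods describe nigral tissue taken out by hand.

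Mitochondria carry a small genome of their own, but almost all of their proteins are encoded in the nucleus, so their production depends on nuclear transcription factors. In the textbook scheme, the coactivators PGC-1α and PGC-1β dock on nuclear respiratory factors and on the estrogen-related receptor ERRα, and these factors bind promoters of respiratory chain genes and of the genes that copy and transcribe mitochondrial DNA. SIRT1 removes acetyl groups from PGC-1α, and SIRT3 removes them from enzymes inside mitochondria. In the brain, PGC-1α is known to be abundant in parvalbumin interneurons and to matter for the survival of dopaminergic neurons.

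Each library held 66.7 to 75.6 M reads counted on genes in pre-treatment and 48.8 to 77.2 M in delayed treatment. Levels are given as CPM, counts relative to the library size with TMM scaling, and the 3 mice of a group are listed by replicate number. The tables list different sets of genes, and levels were not compared between them. As a check of the MPTP labels, the dopamine transporter gene Slc6a3 was at 62.9, 66.2 and 67.4 CPM in control mice of the delayed treatment experiment and at 15.3, 24.3 and 53.5 CPM in its MPTP mice. In the pre-treatment experiment it was at 58.9, 106 and 105 CPM in control mice, at 51.3, 65.5 and 52.1 CPM in MPTP mice and at 28.3, 37.2 and 25.7 CPM in mice given irisin before MPTP. The log2 fold change for MPTP against control was -1.08 with delayed treatment (adjusted p = 0.458, edgeR) and -0.68 with pre-treatment (adjusted p = 0.819), and that of Th, which encodes the enzyme that starts dopamine synthesis, was -0.68 (adjusted p = 0.188) and -0.25 (adjusted p = 0.939). In tissue as a whole, fewer cells of a type and less RNA per cell cannot be told apart. The summed level of 6 choroid plexus markers stood apart in single mice, at 2531 CPM in MPTP mouse 2 of the pre-treatment experiment against 305 to 450 CPM in the other 8, and ranged from 440 to 2538 CPM in the delayed treatment experiment. No label says more than that the mice are replicates, so p-values measure the spread between these samples.

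Compared per length of gene, the members kept much the same order in both experiments. By the deposited FPKM, Ppargc1a and Tfam were the highest in the pre-treatment experiment, with medians of 9.19 and 8.87 FPKM over 9 mice, and their ranges of 7.94 to 9.86 and 7.80 to 9.39 FPKM overlapped. Esrra, Tfb2m, Sirt3, Gabpa, Polg and Sirt1 followed in this order, from medians of 7.20 down to 3.11 FPKM. Esrra was the highest in the delayed treatment experiment, where its median was 11.9 FPKM and its range of 10.7 to 13 FPKM over 12 mice lay above that of every other member. Nrf1 and Ppargc1b were the lowest in both, with medians of 0.811 and 0.763 FPKM in the pre-treatment experiment and 0.910 and 0.823 FPKM in the delayed treatment experiment, and overlapping ranges. The counts behind these levels were 122 to 319 reads per mouse for Ppargc1b, 401 to 1277 for Nrf1 and at least 558 for every other member. Nrf1 varied most within groups in the pre-treatment experiment, with a median coefficient of variation of 31.6%, and Tfam least, with 3.82%.

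**Figure D1:**
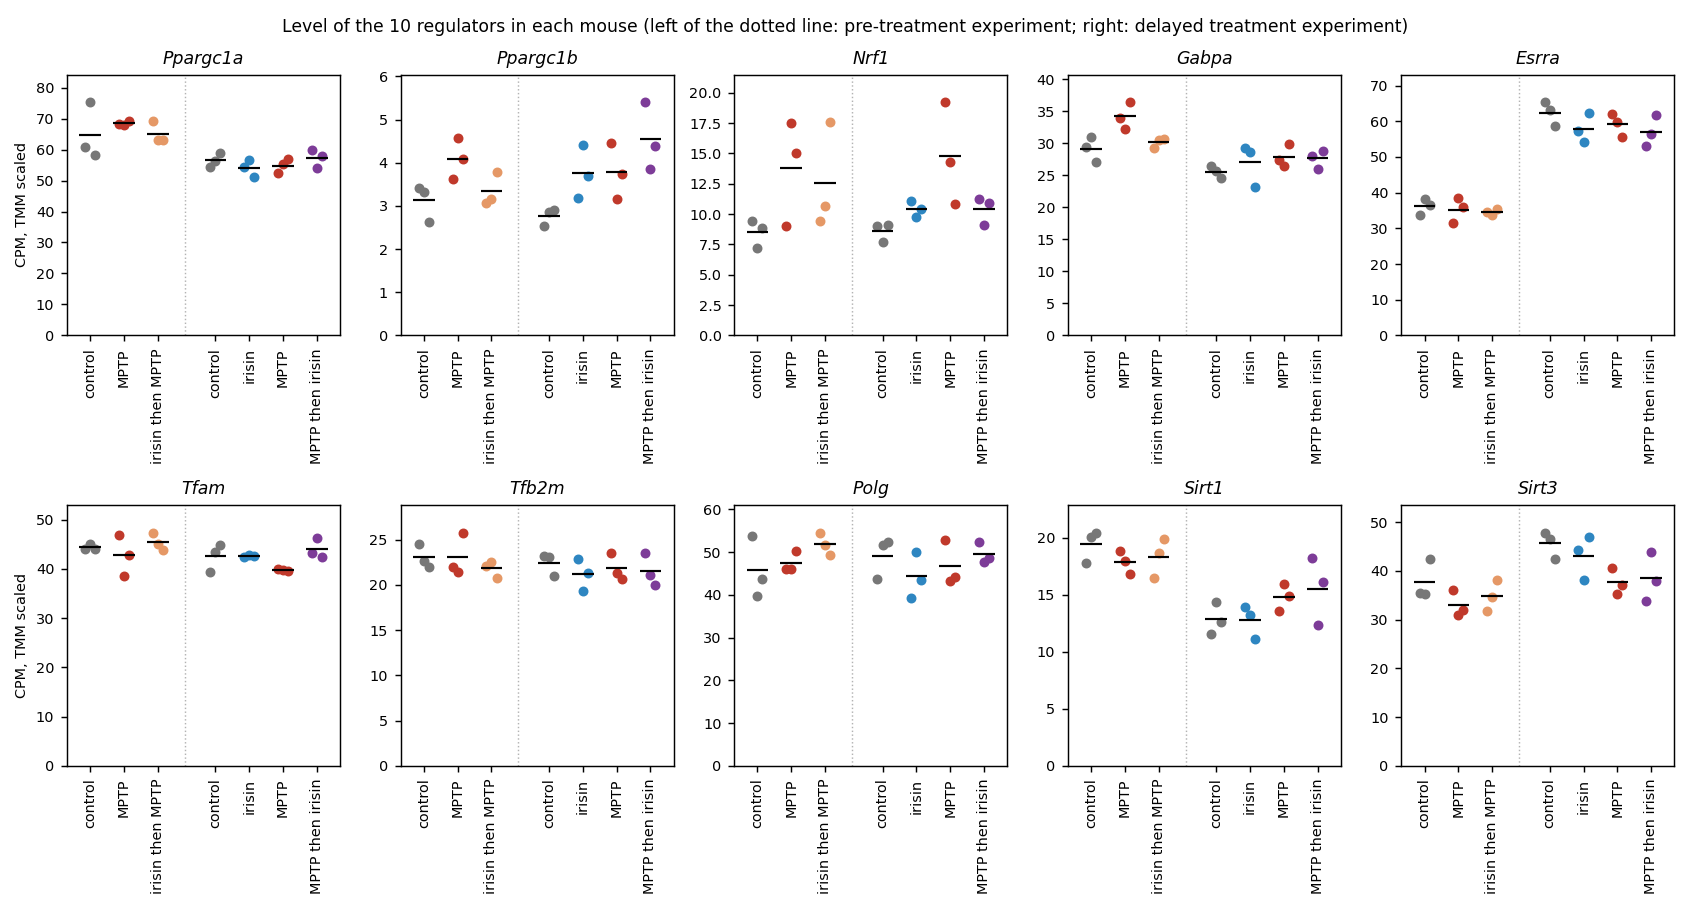
CPM (TMM scaled) of each regulator in each of the 21 mice, 1 panel a gene. Points are mice and bars are group means of 3 mice, and the dotted line separates the experiments, whose levels are not comparable. Ppargc1a lies within 58.2 to 75.2 CPM and 51.1 to 59.7 CPM, and Nrf1 has 5 mice at 14.2 CPM or more, all of them given MPTP.

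None of the 10 members had an adjusted p under 0.05 in any of 8 comparisons by the quasi-likelihood test of edgeR, adjusted over all tested genes after Benjamini and Hochberg. The smallest was 0.254, for Nrf1 in MPTP against control mice of the delayed treatment experiment. Few genes of any kind passed. In MPTP against control mice of the pre-treatment experiment, 0.0221% of 22641 tested genes passed, and 2 of 10 members (Nrf1 and Gabpa) had an unadjusted p under 0.05 beside 6.03% of all genes. In irisin before MPTP against MPTP, 0.0707% of genes passed, and 0 of 10 members had an unadjusted p under 0.05 beside 6.22% of genes. In irisin before MPTP against control, 0.0707% passed and 0 of 10 members had an unadjusted p under 0.05 beside 7.12% of genes.

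In the delayed treatment experiment 21922 genes were tested. MPTP against control gave 3 of 10 members with an unadjusted p under 0.05 (Nrf1, Ppargc1b and Sirt3) beside 8.33% of genes, and 0.132% of genes passed adjustment. MPTP followed by irisin against MPTP gave 2 of 10 (Nrf1 and Tfam) beside 3.9% of genes, and 0.00456% passed adjustment. Irisin alone against control gave 1 of 10 (Ppargc1b) beside 8.97% of genes, and 0.109% passed adjustment. MPTP followed by irisin against irisin alone gave 0 of 10 beside 3.88% of genes, and 0.00456% passed adjustment. The interaction, which asks whether the difference between irisin and ddH2O was itself different after MPTP, gave 1 of 10 (Nrf1) beside 5.57% of genes, and 0.0411% passed adjustment. Counts of 0 to 3 in 10 leave little room between the members and these backgrounds, and nothing particular to the members is read from them.

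The groups were also compared by whether their CPM ranges overlapped at all. In the pre-treatment experiment the ranges were apart for 2 of 10 members in MPTP against control (Ppargc1b and Gabpa), beside 11.6% of genes. They were apart for 1 (Gabpa) in irisin before MPTP against MPTP, beside 14.2% of genes, and for 1 (Nrf1) in irisin before MPTP against control, beside 13.6%. Those of the delayed treatment experiment were apart for 3 in MPTP against control (Nrf1, Ppargc1b and Sirt3), beside 16.2% of genes, and for 1 (Tfam) in MPTP followed by irisin against MPTP, beside 10.7%. They were apart for 2 in irisin alone against control (Ppargc1b and Nrf1), beside 15.1%, and for 0 in MPTP followed by irisin against irisin alone, beside 8.69%. An exact permutation test of 3 mice against 3 cannot give a two-sided p below 0.1, even where the ranges are apart.

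The members as a set sat close to 0. Their median log2 fold change was 0.03 in MPTP against control of the pre-treatment experiment and -0.05 in irisin before MPTP against MPTP. With delayed treatment it was -0.04 in MPTP against control, 0.05 in MPTP followed by irisin against MPTP and -0.04 in irisin alone against control. The median over all tested genes lay between -0.00227 and 0.00309 there. The median size of the members' log2 fold changes, regardless of sign, was 0.07 to 0.11 in these comparisons, and that of all tested genes was 0.13 to 0.17. For 6 to 8 of the 10 members, depending on the comparison, the whole 95% interval of the log2 fold change lay within 0.5 of 0.

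**Figure D2:**
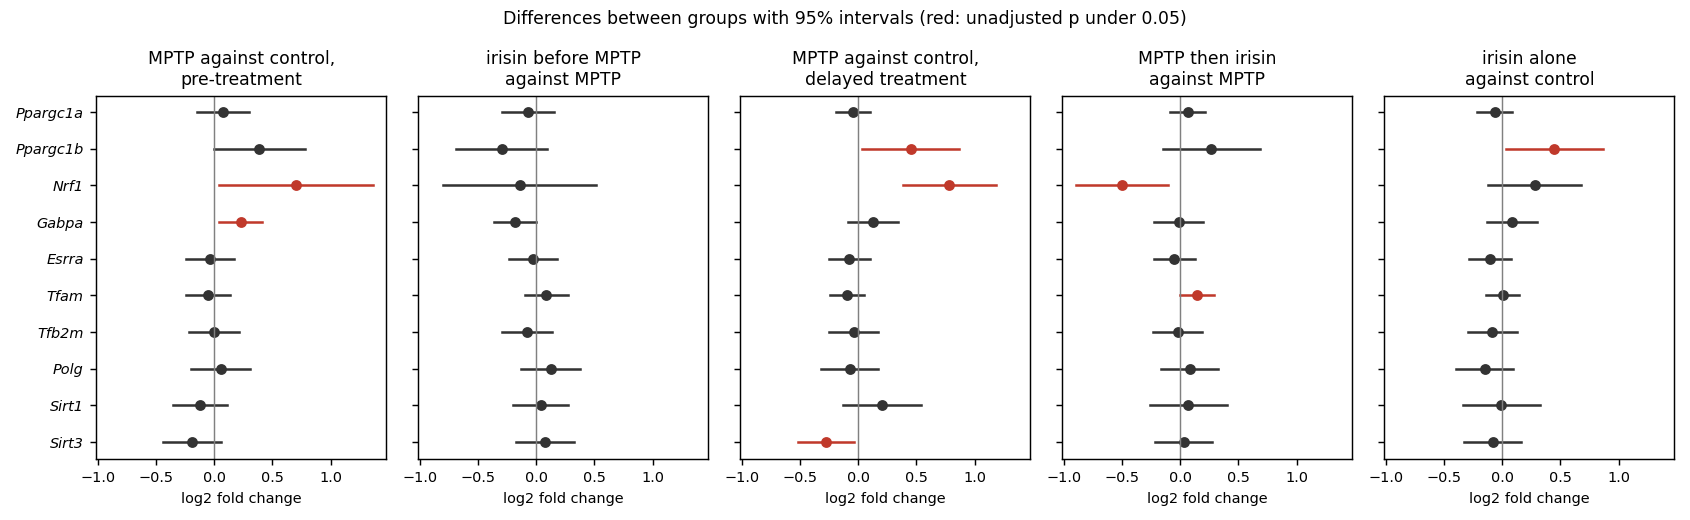
Log2 fold change (x axis) of each regulator in 5 comparisons, with edgeR's 95% interval as a line and an unadjusted p under 0.05 in red. The points of Nrf1 lie the farthest from 0, at 0.70 and 0.78 in the 2 panels of MPTP against control, and those of Ppargc1a lie between -0.07 and 0.08 in all 5.

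Ppargc1a, which encodes PGC-1α, was nearly level across the groups. The gene lies at chr5:51454250-51567704 (GRCm38, minus strand). For Ppargc1a in pre-treatment, control mice had 61.0, 75.2 and 58.2 CPM, MPTP mice 68.3, 68.1 and 69.1 CPM, and mice given irisin before MPTP 69.1, 63.2 and 63.1 CPM. For Ppargc1a in delayed treatment, control mice had 54.4, 56.4 and 59.0 CPM, irisin mice 54.5, 56.6 and 51.1 CPM, MPTP mice 52.3, 55.2 and 56.9 CPM, and mice given MPTP and then irisin 59.7, 54.1 and 57.9 CPM. Every group overlapped every other group of its experiment. The fold for MPTP against control was 1.06 (95% interval 0.906 to 1.23) for pre-treatment and 0.968 (0.874 to 1.07) for delayed treatment. It was 0.951 (0.815 to 1.11) for irisin before MPTP against MPTP, 1.04 (0.944 to 1.16) for MPTP followed by irisin against MPTP and 0.955 (0.863 to 1.06) for irisin alone against control. These intervals were narrower than those of Nrf1 and Ppargc1b, the 2 members with the fewest reads.

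The 5 genes whose log2 CPM was most like that of Ppargc1a were sought among 15504 genes, by the lower of the Pearson correlations over the 9 and the 12 mice. They were Fam76b (r = 0.777 and 0.732), Fbxw7 (0.73 and 0.822), Styx (0.711 and 0.804), Jrkl (0.858 and 0.707) and Bmi1 (0.707 and 0.767). Fbxw7 is a substrate receptor of a ubiquitin ligase and Bmi1 is a subunit of a polycomb complex. The points share their libraries and their scaling, and the correlations are a description.

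Ppargc1b encodes PGC-1β, the related coactivator, and had the fewest reads of the set. Its 3 control mice in the pre-treatment experiment had 3.42, 3.33 and 2.64 CPM, its MPTP mice 3.63, 4.57 and 4.09 CPM, and mice given irisin before MPTP 3.06, 3.16 and 3.79 CPM. For Ppargc1b in delayed treatment, control mice had 2.53, 2.85 and 2.90 CPM, irisin mice 3.18, 4.42 and 3.69 CPM, MPTP mice 4.45, 3.15 and 3.73 CPM, and mice given MPTP and then irisin 5.40, 3.87 and 4.39 CPM. All 9 treated mice of the delayed treatment experiment lay above its 3 control mice, and all 3 MPTP mice of the pre-treatment experiment above theirs. The log2 fold change for MPTP against control was 0.39 ± 0.17 (SE, unadjusted p = 0.0504, adjusted p = 0.823, edgeR) in the pre-treatment experiment. It was 0.45 ± 0.19 (unadjusted p = 0.0364, adjusted p = 0.559, edgeR) in the delayed treatment experiment, and 0.45 ± 0.19 (unadjusted p = 0.0385, adjusted p = 0.539, edgeR) for irisin alone against the same control mice. No more than 1 of 6 fits that each left out 1 mouse kept an unadjusted p under 0.05 (edgeR) in these 3 comparisons, and leaving out control mouse 3 of the pre-treatment experiment brought its value to 0.28 (unadjusted p = 0.164, edgeR).

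Libraries differed in the balance of long and short genes, and the mice at its ends included those with the lowest Ppargc1b levels. For each mouse, this balance was taken as the median log2 deviation from the experiment's mean of 1635 long genes (at least 10.86 kb by the length that counts and FPKM imply; 1609 of at least 10.96 kb in the delayed treatment experiment) minus that of as many short ones. It was lowest, at -0.2793 and -0.2412, in control mouse 3 (pre-treatment) and control mouse 1 (delayed treatment), which also had the lowest Ppargc1b levels of their experiments. It was highest, at 0.2321, in mouse 1 given MPTP and then irisin, which had the highest Ppargc1b level of the delayed treatment experiment. The order was not kept throughout: mouse 1 given irisin before MPTP had the highest balance of its experiment, at 0.1021, and Ppargc1b at 3.06 CPM, below the 3.42 and 3.33 CPM of control mice 1 and 2, whose balance was -0.0099 and -0.0146. In MPTP mice it ranged from 0.0446 to 0.081 (pre-treatment) and from 0.0363 to 0.0574 (delayed treatment), above all 3 control mice of either. Its part in the Ppargc1b values was not tested. The genes most like Ppargc1b by the measure used for Ppargc1a, looked up after its values were seen, were Birc6, Ago3, Fat1, Gprin3 and Heatr1 (lower r of 0.817 to 0.858).

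**Figure D3:**
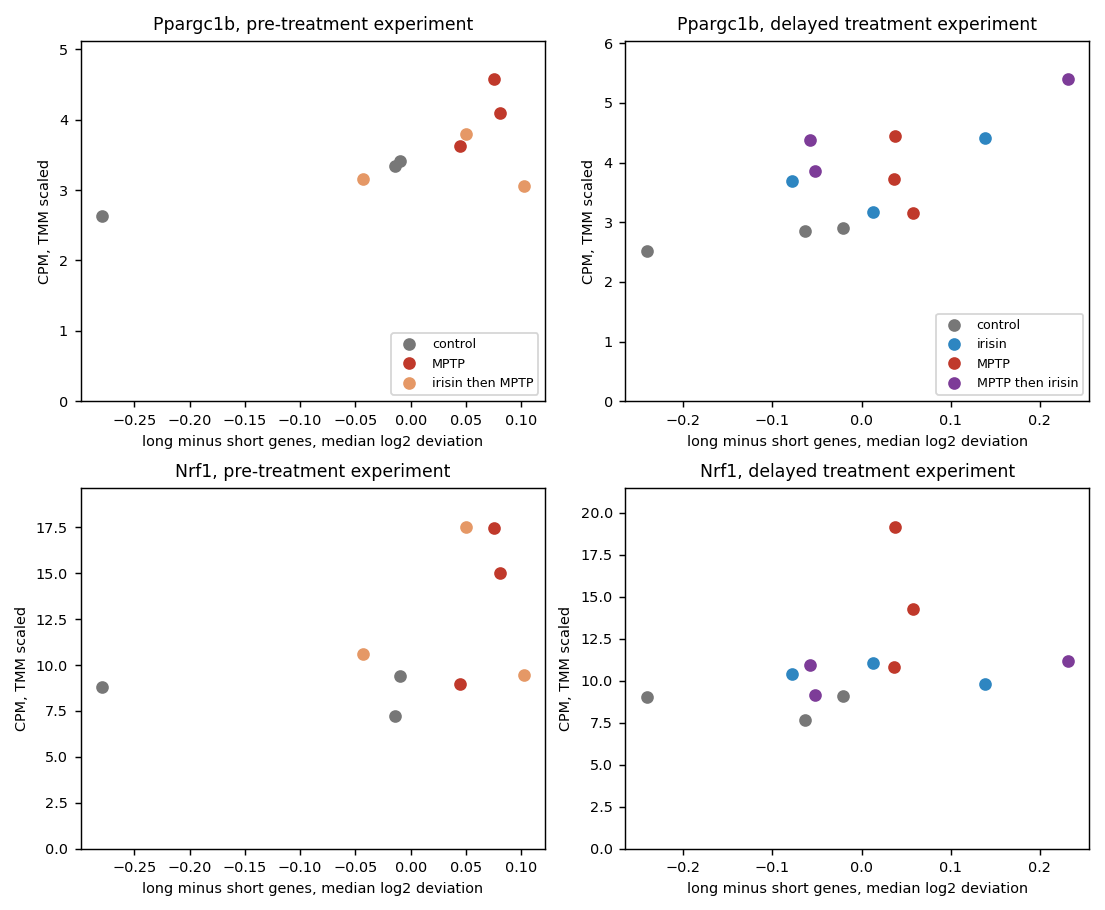
CPM of Ppargc1b (top) and Nrf1 (bottom) against the balance of long and short genes (log2, x axis) in each mouse of the pre-treatment (left) and delayed treatment (right) experiments, coloured by group. Ppargc1b is lowest at the left end, in a control mouse of each experiment at -0.2793 and -0.2412, and the 5 mice with the highest Nrf1 sit between 0.0377 and 0.081.

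Nrf1, the gene of nuclear respiratory factor 1 and not of the stress response factor that shares its abbreviation, showed the largest difference of the set in both experiments. It lies at chr6:30047988-30153458 (GRCm38, plus strand). For Nrf1 in pre-treatment, control mice had 9.41, 7.24 and 8.83 CPM, MPTP mice 8.98, 17.5 and 15 CPM, and mice given irisin before MPTP 9.43, 10.6 and 17.5 CPM. For Nrf1 in delayed treatment, control mice had 9.01, 7.68 and 9.07 CPM, irisin mice 11.1, 9.79 and 10.4 CPM, MPTP mice 19.2, 14.2 and 10.8 CPM, and mice given MPTP and then irisin 11.2, 9.12 and 10.9 CPM. MPTP mice were thus uneven. MPTP mouse 1 of the pre-treatment experiment was at control level. MPTP mouse 3 of the delayed treatment experiment lay above its control mice but within the range of the irisin mice. The other MPTP mice lay well above control level. In pre-treatment, 3 of 9 mice had 15 to 17.5 CPM and the other 6 at most 10.6 CPM, and in delayed treatment 2 of 12 had at least 14.2 CPM and the other 10 at most 11.2 CPM. All 5 of these high mice had been given MPTP, 4 of them without irisin. The step was noticed in the values and is given as a description.

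The fold of Nrf1 for MPTP against control was 1.63 (95% interval 1.03 to 2.58, unadjusted p = 0.0403, adjusted p = 0.823, edgeR) in the pre-treatment experiment, where MPTP mouse 1 overlapped the control mice. With delayed treatment it was 1.72 (1.30 to 2.27, unadjusted p = 0.00125, adjusted p = 0.254, edgeR), and the 3 MPTP mice lay above the 3 control mice. DESeq2, run as an alternative, gave the same difference a log2 fold change of 0.79 and an adjusted p of 0.0144, and called 178 genes there where edgeR called 29. This was the only 1 of 930 values, over all members, comparisons and alternatives, with an adjusted p under 0.05. In edgeR's fits that left out 1 mouse, the log2 fold change ran from 0.55 (unadjusted p = 0.00453) without MPTP mouse 1 to 0.96 (unadjusted p = 8.79e-05) without MPTP mouse 3. The unadjusted p was under 0.05 in 6 of 6 such fits and the adjusted p ran from 0.0687 to 0.563. In the pre-treatment experiment the same range was 0.50 (unadjusted p = 0.145) without MPTP mouse 2 to 0.93 (unadjusted p = 0.00762) without MPTP mouse 1, and 1 of 6 fits had a p under 0.05.

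Irisin given after MPTP was compared with MPTP followed by ddH2O, and Nrf1 was lower at a fold of 0.707 (95% interval 0.537 to 0.931, unadjusted p = 0.0181, edgeR), with ranges that overlapped and an adjusted p of 0.9995. Without MPTP mouse 1, the log2 fold change went from -0.50 to -0.27 (unadjusted p = 0.109, edgeR). Irisin given to mice without MPTP had a fold of 1.21 (0.921 to 1.6, unadjusted p = 0.151, edgeR), with all 3 irisin mice above the 3 control mice. The interaction between irisin and MPTP was -0.78 ± 0.26 on the log2 scale (SE, unadjusted p = 0.0110, adjusted p = 0.893, edgeR), and kept an unadjusted p under 0.05 in 12 of 12 fits that left out 1 mouse. These comparisons share mice, since the MPTP mice of the delayed treatment experiment enter several of them. Irisin given before MPTP against MPTP gave a fold of 0.907 (0.575 to 1.43, unadjusted p = 0.639, edgeR), an interval that also holds the fold of 0.707 seen with irisin after MPTP. The log2 fold change there was 0.06 without MPTP mouse 2 and -0.46 without mouse 3 of the group given irisin before MPTP, so that its direction rested on single mice.

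Values of other kinds stood beside Nrf1 in the same mice. Delayed treatment MPTP mice 1, 2 and 3 had Slc6a3 at 15.3, 24.3 and 53.5 CPM where Nrf1 was at 19.2, 14.2 and 10.8 CPM. In the pre-treatment experiment, MPTP mice 1, 2 and 3 had Slc6a3 at 51.3, 65.5 and 52.1 CPM where Nrf1 was at 8.98, 17.5 and 15 CPM, which is not the same order. Mice 1, 2 and 3 given MPTP and then irisin had Slc6a3 at 35.1, 24.5 and 19.2 CPM where Nrf1 was at 11.2, 9.12 and 10.9 CPM. Those given irisin before MPTP had Slc6a3 at 28.3, 37.2 and 25.7 CPM where Nrf1 was at 9.43, 10.6 and 17.5 CPM. MPTP mouse 2 of the pre-treatment experiment, with a choroid plexus sum of 2531 CPM, was among the mice high in Nrf1, while MPTP mouse 3 of the delayed treatment experiment, with a sum of 2525 CPM, had the lowest Nrf1 of its group. The genes most like Nrf1, looked up after its values were seen, were Ahnak (r = 0.703 and 0.713), Sun1, Clp1, Hectd4 and Scn7a. In the balance of long and short genes, the 5 high mice lay between 0.0377 and 0.081. MPTP mouse 1 of the pre-treatment experiment, with Nrf1 at 8.98 CPM, lay there too, at 0.0446. By the length that counts and FPKM imply, Nrf1 (11656 bases) and Polg (12126 bases) are long genes, and Ppargc1b (4506 bases) is not. The part of these values in the level of Nrf1 was not tested.

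**Figure D4:**
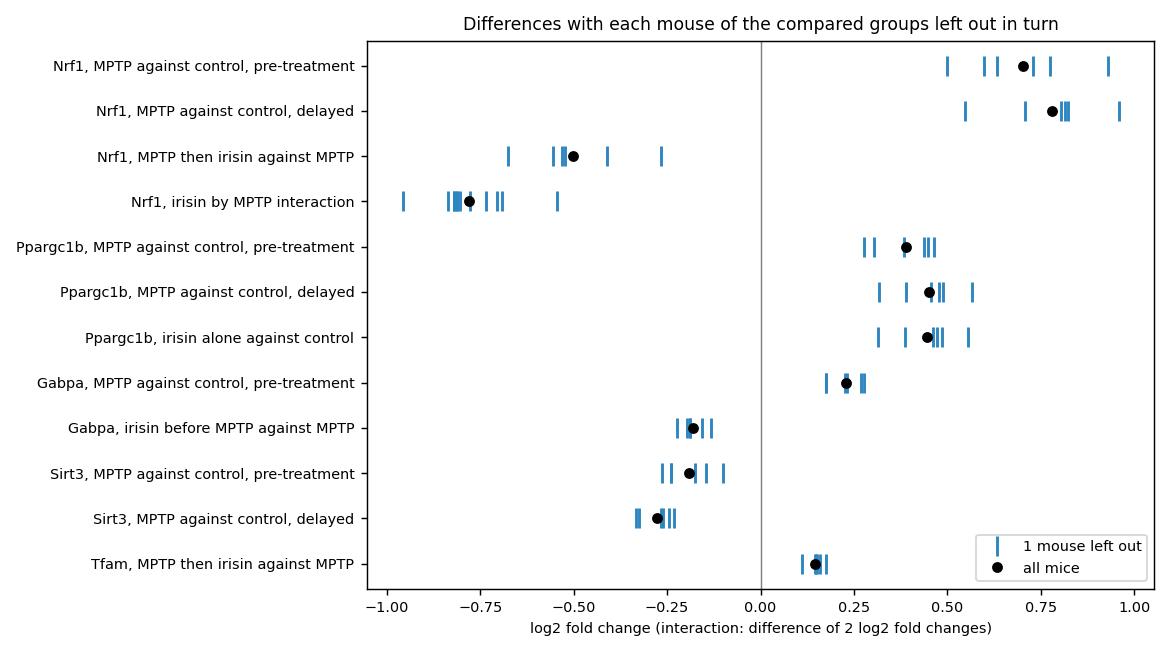
Log2 fold change (x axis) of Nrf1, Ppargc1b, Gabpa, Sirt3 and Tfam in the comparisons where they stood out, with all mice (black points) and with each mouse of the compared groups left out in turn (blue ticks). The ticks of Nrf1 in MPTP against control run from 0.50 to 0.93 (pre-treatment) and from 0.55 to 0.96 (delayed treatment), and no tick of these 12 picked lines crosses 0. Nrf1 in irisin before MPTP against MPTP, which is not shown, ran from -0.46 to 0.06.

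Gabpa encodes the DNA-binding subunit of the GA-binding protein, which the mitochondrial field calls nuclear respiratory factor 2. The gene lies at chr16:84834925-84863779 (GRCm38, plus strand). For Gabpa in pre-treatment, control mice had 29.4, 31.0 and 27.1 CPM, MPTP mice 33.9, 32.3 and 36.4 CPM, and mice given irisin before MPTP 29.3, 30.5 and 30.7 CPM. The MPTP mice lay above both other groups, which overlapped each other. The fold was 1.17 (95% interval 1.03 to 1.33, unadjusted p = 0.0199, adjusted p = 0.819, edgeR) for MPTP against control and 0.882 (0.777 to 1.001, unadjusted p = 0.0521, adjusted p = 0.807, edgeR) for irisin before MPTP against MPTP. Both use the same MPTP mice. Without MPTP mouse 3 the log2 fold change against control went from 0.23 to 0.18 (unadjusted p = 0.0913, edgeR). For Gabpa in delayed treatment, control mice had 26.4, 25.6 and 24.6 CPM, irisin mice 29.3, 28.7 and 23.2 CPM, MPTP mice 27.5, 26.4 and 29.9 CPM, and mice given MPTP and then irisin 28.1, 26 and 28.8 CPM. All these groups overlapped, MPTP and control mice only in that the lowest of the former and the highest of the latter were both at 26.4 CPM, and the fold for MPTP against control was 1.09 (0.942 to 1.27). Gabpa overlaps Atp5j on the other strand by 701 bases, and Atp5j had a mean count of 9322 and 6929 in the tables against 2212 and 1540 for Gabpa. The sources used here do not say whether the counting used strand, and reads there may belong to either gene.

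Esrra encodes ERRα, an orphan nuclear receptor that works with PGC-1α on respiratory chain genes, and its groups overlapped throughout. It lies at chr19:6910977-6921808 (GRCm38, minus strand; the delayed table ends it at 6921840). For Esrra in pre-treatment, control mice had 33.8, 38.2 and 36.5 CPM, MPTP mice 31.4, 38.4 and 36.0 CPM, and mice given irisin before MPTP 34.7, 33.7 and 35.4 CPM. For Esrra in delayed treatment, control mice had 65.3, 63.1 and 58.6 CPM, irisin mice 57.3, 54.1 and 62.4 CPM, MPTP mice 62.0, 59.7 and 55.6 CPM, and mice given MPTP and then irisin 53.0, 56.4 and 61.7 CPM. Single mice differed as much within groups as between them. The fold for MPTP against control was 0.976 (95% interval 0.846 to 1.13) for pre-treatment and 0.948 (0.839 to 1.07) for delayed treatment, and irisin alone against control gave 0.929 (0.822 to 1.05).

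Tfam encodes the protein that packages mitochondrial DNA and starts its transcription, and had the lowest median coefficient of variation within groups of the 10 members in both experiments (3.82% in pre-treatment, 2.57% in delayed treatment). It lies at chr10:71225464-71238280 (GRCm38, minus strand). For Tfam in pre-treatment, control mice had 44.1, 45.1 and 44.1 CPM, MPTP mice 46.9, 38.5 and 42.9 CPM, and mice given irisin before MPTP 47.4, 45.2 and 43.9 CPM. For Tfam in delayed treatment, control mice had 39.4, 43.4 and 44.8 CPM, irisin mice 42.5, 42.9 and 42.6 CPM, MPTP mice 39.9, 39.7 and 39.7 CPM, and mice given MPTP and then irisin 43.3, 46.3 and 42.4 CPM. The MPTP mice of the delayed treatment experiment lay below both irisin groups and overlapped the control mice only through control mouse 1. The fold was 1.11 (95% interval 1.001 to 1.22, unadjusted p = 0.0474, adjusted p = 0.9995, edgeR) for MPTP followed by irisin against MPTP, and 1 of 6 fits that left out 1 mouse kept a p under 0.05. It was 0.934 (0.845 to 1.03) for MPTP against control in the delayed treatment experiment and 0.962 (0.845 to 1.10) in the pre-treatment experiment.

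Tfb2m encodes the factor that opens mitochondrial promoters for the RNA polymerase, and lies at chr1:179528055-179546267 (GRCm38, minus strand). Over all groups it stayed between 20.8 and 25.8 CPM in the pre-treatment experiment and between 19.3 and 23.5 CPM in the delayed treatment experiment. Its group means were 23.1 ± 1.34 CPM (SD, n = 3) in control mice, 23.1 ± 2.33 in MPTP mice and 21.8 ± 0.906 in mice given irisin before MPTP. Delayed treatment gave 22.4 ± 1.22 CPM in control mice, 21.2 ± 1.78 in irisin mice, 21.8 ± 1.47 in MPTP mice and 21.5 ± 1.81 in mice given MPTP and then irisin. The differences between groups were smaller than these spreads, or near them, and the ranges overlapped. The fold for MPTP against control was 1.001 (95% interval 0.862 to 1.16) and 0.974 (0.842 to 1.13) in the respective experiments.

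Polg encodes the catalytic subunit of the mitochondrial DNA polymerase, and lies at chr7:79446231-79466362 (GRCm38, minus strand). For Polg in pre-treatment, control mice had 53.7, 39.7 and 43.8 CPM, MPTP mice 46.0, 46.1 and 50.4 CPM, and mice given irisin before MPTP 54.5, 51.6 and 49.3 CPM. For Polg in delayed treatment, control mice had 43.6, 51.6 and 52.4 CPM, irisin mice 39.3, 50.1 and 43.5 CPM, MPTP mice 52.9, 43.4 and 44.1 CPM, and mice given MPTP and then irisin 52.3, 47.8 and 48.6 CPM. Single mice spread widely and the groups overlapped. The fold was 1.09 (95% interval 0.915 to 1.30) for irisin before MPTP against MPTP and 0.901 (0.759 to 1.07) for irisin alone against control. Polg overlaps Fanci on the other strand by 4034 bases, where Fanci had a mean count of 129.8 and 70.5.

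The promoters of Tfam, Tfb2m, Polg and Gabpa are shown because they carry letters that nuclear respiratory factors are known to bind, while Nrf1 and Gabpa were the transcription factors of the set with an unadjusted p under 0.05 in a comparison. The windows are those of RefSeq on GRCm38.p6, 250 bases before to 50 bases after a start, and 9 of 10 members had a window. They lie at chr10:71237995-71238294 (Tfam, minus strand), chr1:179546227-179546526 (Tfb2m, minus strand), chr7:79466224-79466523 (Polg, minus strand) and chr16:84834874-84835173 (Gabpa, plus strand). Capitals mark CGCATGCG, a core of the nuclear respiratory factor 1 site, and CCGGAAG or its reverse complement, a core of the sites of ETS factors such as GABPA.
Tfam: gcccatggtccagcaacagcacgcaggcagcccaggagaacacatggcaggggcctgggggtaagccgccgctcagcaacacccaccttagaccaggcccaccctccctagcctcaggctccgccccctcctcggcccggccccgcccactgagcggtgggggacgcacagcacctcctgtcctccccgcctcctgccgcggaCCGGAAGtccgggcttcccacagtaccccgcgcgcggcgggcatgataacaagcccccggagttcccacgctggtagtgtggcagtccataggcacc
Tfb2m: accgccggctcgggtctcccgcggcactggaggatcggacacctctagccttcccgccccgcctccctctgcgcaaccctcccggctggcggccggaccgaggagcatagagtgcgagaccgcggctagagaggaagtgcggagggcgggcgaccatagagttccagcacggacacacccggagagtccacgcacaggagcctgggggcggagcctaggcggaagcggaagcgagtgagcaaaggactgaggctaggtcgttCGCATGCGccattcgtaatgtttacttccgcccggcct
Polg: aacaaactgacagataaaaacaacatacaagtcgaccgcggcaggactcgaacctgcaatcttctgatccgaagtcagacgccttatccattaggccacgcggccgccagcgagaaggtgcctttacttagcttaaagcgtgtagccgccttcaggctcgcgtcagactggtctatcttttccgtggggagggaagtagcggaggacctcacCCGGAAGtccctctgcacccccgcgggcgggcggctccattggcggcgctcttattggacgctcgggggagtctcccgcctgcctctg
Gabpa: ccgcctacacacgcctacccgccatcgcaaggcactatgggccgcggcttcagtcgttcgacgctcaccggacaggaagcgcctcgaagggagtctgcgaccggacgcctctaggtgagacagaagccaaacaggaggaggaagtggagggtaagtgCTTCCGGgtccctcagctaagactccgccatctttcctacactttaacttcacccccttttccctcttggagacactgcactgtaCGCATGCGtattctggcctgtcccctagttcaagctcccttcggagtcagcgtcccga
CGCATGCG stood at base -8 from the start of Gabpa and at base 13 of Tfb2m, in 2 of 9 members with a window (2 of their 11 windows) and in 1.87% of 32851 windows of the same length. CCGGAAG stood at base -47 of Tfam, -38 of Polg, -93 of Gabpa and -85 of Sirt3, in 4 of 9 members (4 of their 11 windows) and in 8.86% of windows. CACGTG, the E-box, stood at 2 places in the window of Sirt1, -115 and -43, and is in 7.15% of windows. TCAAGGTCA, the element of estrogen-related receptors, and TGACGTCA, the cyclic AMP response element, were in no member's window and in 0.423% and 1.79% of all windows. Both strands were searched, and no match overlapped another in the members. The RefSeq start of Sirt1 lies inside the gene as the deposited tables list it, and so do those of Tfam, Polg and Gabpa among the windows shown. A match of letters is a description and not a site of binding.

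Sirt1 encodes a nuclear NAD-dependent deacetylase that acts on PGC-1α, and lies at chr10:63319005-63381704 (GRCm38, minus strand). For Sirt1 in pre-treatment, control mice had 17.8, 20.1 and 20.4 CPM, MPTP mice 18.8, 18.0 and 16.8 CPM, and mice given irisin before MPTP 16.4, 18.7 and 19.9 CPM. For Sirt1 in delayed treatment, control mice had 11.6, 14.4 and 12.6 CPM, irisin mice 13.9, 13.2 and 11.2 CPM, MPTP mice 13.6, 16.0 and 14.9 CPM, and mice given MPTP and then irisin 18.2, 12.3 and 16.1 CPM. The ranges overlapped in every comparison. The fold for MPTP against control was 0.919 (95% interval 0.782 to 1.08) for pre-treatment and 1.15 (0.916 to 1.45) for delayed treatment, and both intervals held a fold of 1. MPTP followed by irisin against irisin alone gave 1.22 (0.969 to 1.53, unadjusted p = 0.0847, edgeR).

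Sirt3 encodes the main deacetylase of the mitochondrial matrix, and lies at chr7:140863666-140882309 (GRCm38, minus strand). For Sirt3 in pre-treatment, control mice had 35.6, 35.2 and 42.5 CPM, MPTP mice 36.2, 31.0 and 32 CPM, and mice given irisin before MPTP 31.8, 34.6 and 38.1 CPM. For Sirt3 in delayed treatment, control mice had 47.8, 46.6 and 42.5 CPM, irisin mice 44.3, 38.2 and 47.0 CPM, MPTP mice 40.7, 35.4 and 37.0 CPM, and mice given MPTP and then irisin 33.7, 43.9 and 37.9 CPM. The 3 MPTP mice lay below the 3 control mice in the delayed treatment experiment, and overlapped them through MPTP mouse 1 in the pre-treatment experiment. The fold for MPTP against control was 0.826 (95% interval 0.697 to 0.978, unadjusted p = 0.0298, adjusted p = 0.531, edgeR) in the delayed treatment experiment, where 2 of 6 fits that left out 1 mouse kept a p under 0.05. It was 0.876 (0.738 to 1.04, unadjusted p = 0.116, edgeR) in the pre-treatment experiment. MPTP followed by irisin against MPTP gave 1.02 (0.863 to 1.21). Sirt3 overlaps Psmd13 by 342 bases and Ric8a by 65 bases on the other strand, with mean counts of 4386 and 2488 in the pre-treatment table.

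Around the members, lists of genes of the same pathway were counted in the same fits. The lists were chosen with earlier results of these data known, so their counts are a description. Of 25 further genes that maintain or transcribe mitochondrial DNA, such as the polymerase Polrmt and the helicase Twnk, 0 passed adjustment in any comparison and at most 3 had an unadjusted p under 0.05. The share of all genes at that level was 3.88% to 8.97%, depending on the comparison. Slirp, which stabilises mitochondrial messenger RNAs, had 29.6 ± 7.49 CPM (SD, n = 3) in MPTP mice and 42.6 ± 6.65 CPM in control mice of the pre-treatment experiment (log2 fold change -0.53 ± 0.22 SE, adjusted p = 0.823, edgeR). Of 38 partners and regulators of PGC-1, 0 passed adjustment. In MPTP against control of the pre-treatment experiment, 3 were higher and 0 lower at an unadjusted p under 0.05, with a list median of 0.09. This stood beside 6.03% of all genes in either direction. Among them, the fatty acid receptor Ppard was at 16.8 ± 3.50 against 11.1 ± 0.641 CPM (log2 fold change 0.59, unadjusted p = 0.00343, adjusted p = 0.704, edgeR). Its relative Ppara was at 1.93 ± 0.391 against 1.03 ± 0.397 CPM (0.90, unadjusted p = 0.0159, adjusted p = 0.819, edgeR). In irisin before MPTP against MPTP, Ppard was at 11.9 ± 0.239 against 16.8 ± 3.50 CPM (-0.50, unadjusted p = 0.00868, adjusted p = 0.566, edgeR). Pprc1, the third PGC-1 coactivator, was at 15.3 ± 0.802 against 19.2 ± 2.11 CPM (-0.33, unadjusted p = 0.0119, adjusted p = 0.607, edgeR).

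With delayed treatment, Kat2a, an acetyltransferase of PGC-1α, was at 63.9 ± 1.996 CPM in MPTP mice and 63.3 ± 1.55 CPM in irisin mice against 74.5 ± 3.06 CPM in the same control mice (unadjusted p = 0.00198 and 0.00129, adjusted p = 0.295 in both, edgeR). Mybbp1a, a repressor of PGC-1α, was at 54.0 ± 2.47 CPM in irisin mice against 67.1 ± 3.86 CPM in control mice (log2 fold change -0.31 ± 0.07 SE, adjusted p = 0.212, edgeR). Of 11 genes of AMP-activated protein kinase and its upstream kinases, which act on PGC-1α by phosphorylation, 0 passed adjustment and at most 1 in a comparison had an unadjusted p under 0.05. Of 21 genes of NAD supply and use and other sirtuins (20 tested in the pre-treatment experiment), 0 passed adjustment and at most 2 had an unadjusted p under 0.05. Both counts stand beside 3.88% to 8.97% of all genes, depending on the comparison. Of 8 genes of parvalbumin neurons associated with PGC-1α, 0 passed adjustment, and Kcna1, a potassium channel, was at 94.4 ± 6.45 CPM in MPTP mice and 92.6 ± 12.7 CPM in irisin mice against 64.1 ± 8.37 CPM in control mice of the delayed treatment experiment (adjusted p = 0.149 and 0.212, edgeR). For MPTP against control there, 1 gene was higher and 1 lower at an unadjusted p under 0.05, beside 8.33% of all genes. The list median was -0.08. The lower gene, Syt2, was at 191 ± 18.9 CPM in MPTP mice against 423 ± 165 CPM in control mice (log2 fold change -1.14, adjusted p = 0.551, edgeR).

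Downstream of the regulators, 25 nuclear genes of respiratory chain subunits, import and other mitochondrial proteins gave 0 genes past adjustment. In MPTP against control of the pre-treatment experiment, 1 was higher and 4 lower at an unadjusted p under 0.05, with a list median of -0.04. This stood beside 6.03% of all genes in either direction. Cox5b, a subunit of cytochrome c oxidase, was at 141 ± 5.30 against 160 ± 9.57 CPM there (unadjusted p = 0.0181, adjusted p = 0.819, edgeR). Mfn2, which fuses mitochondria, was at 244 ± 4.48 CPM in MPTP mice and 244 ± 14.6 CPM in irisin mice of the delayed treatment experiment against 211 ± 4.88 CPM in control mice (adjusted p = 0.262 and 0.295, edgeR).

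The mitochondrial genome encodes 13 messenger RNAs, all for subunits of the respiratory chain and ATP synthase. In MPTP against control of the delayed treatment experiment, 10 of 13 were lower at an unadjusted p under 0.05, beside 8.33% of all genes in either direction, and the list median was -0.31. mt-Cytb, the cytochrome b gene, passed adjustment and fell from 9845 ± 650 CPM in control mice to 7698 ± 337 CPM in MPTP mice (SD, n = 3; log2 fold change -0.35 ± 0.06 SE, adjusted p = 0.0467, edgeR). Its adjusted p was under 0.05 in 2 of 11 alternative fits, over which it ran from 0.00181 to 0.249. mt-Nd6, the only messenger RNA from the other strand of the mitochondrial genome, was at 1234 ± 86.3 against 1791 ± 225 CPM (adjusted p = 0.0885, edgeR). In irisin alone against the same control mice 6 of 13 were lower at an unadjusted p under 0.05, beside 8.97% of all genes, with a median of -0.16. In MPTP followed by irisin against MPTP 2 of 13 were higher, beside 3.9% of all genes, with a median of 0.13. In the pre-treatment experiment, 1 of 13 was lower for MPTP against control, beside 6.03% of all genes, with a median of -0.11. For irisin before MPTP against MPTP, 0 of 13 differed, beside 6.22% of all genes. The 13 messenger RNAs share long precursors and libraries and do not count as separate observations.

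Ppargc1a is a known target of the cyclic AMP responsive factor CREB, and 17 genes induced by CREB or by neuronal activity were counted beside it. This list and that of blood markers were also chosen with earlier results of these data known. Their counts beside the share of all genes are a description and not a test. In irisin before MPTP against MPTP, 3 passed adjustment as lower and 12 of 17 were lower at an unadjusted p under 0.05, beside 6.22% of all genes, with a list median of -0.85. Fos fell from 29.7 ± 1.61 to 8.10 ± 1.84 CPM (adjusted p = 0.0210, edgeR), Jun from 45.0 ± 2.66 to 28.2 ± 0.763 CPM (adjusted p = 0.0195) and Btg2 from 18.1 ± 2.89 to 7.56 ± 0.593 CPM (adjusted p = 0.0179). Against control mice, the same 3 passed, with adjusted p of 0.0349 for Fos, 0.0411 for Jun and 0.0387 for Btg2 (edgeR). The 3 calls against MPTP mice were kept in 4 of 11 alternative fits for Fos, 4 for Jun and 5 for Btg2, and those against control mice in 4, 2 and 2. In MPTP against control of the delayed treatment experiment, Btg2 fell from 40.4 ± 17.6 to 10.9 ± 0.441 CPM (adjusted p = 0.0236, edgeR), a call kept in 7 of 11 alternative fits. Of the 17 genes, 8 were lower and 2 higher there at an unadjusted p under 0.05, beside 8.33% of all genes, with a list median of -0.32. In MPTP followed by irisin against MPTP, 5 were higher and 1 lower at that level, beside 3.9% of all genes, with a list median of 0.30, and 0 passed adjustment. Btg2 was then at 26.4 ± 4.02 against 10.9 ± 0.441 CPM (unadjusted p = 0.000529, adjusted p = 0.843, edgeR). Ppargc1a itself had a log2 fold change of -0.07 in irisin before MPTP against MPTP. It was at -0.05 in MPTP against control of the delayed treatment experiment and at 0.06 in MPTP followed by irisin against MPTP. Markers of blood were lower in the same mice given irisin before MPTP, at an unadjusted p under 0.05 for 5 of 5 against MPTP mice and 5 of 5 against control mice, beside 6.22% and 7.12% of all genes, with list medians of -0.93 and -0.89, and their part in these values was not tested.

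**Figure D5:**
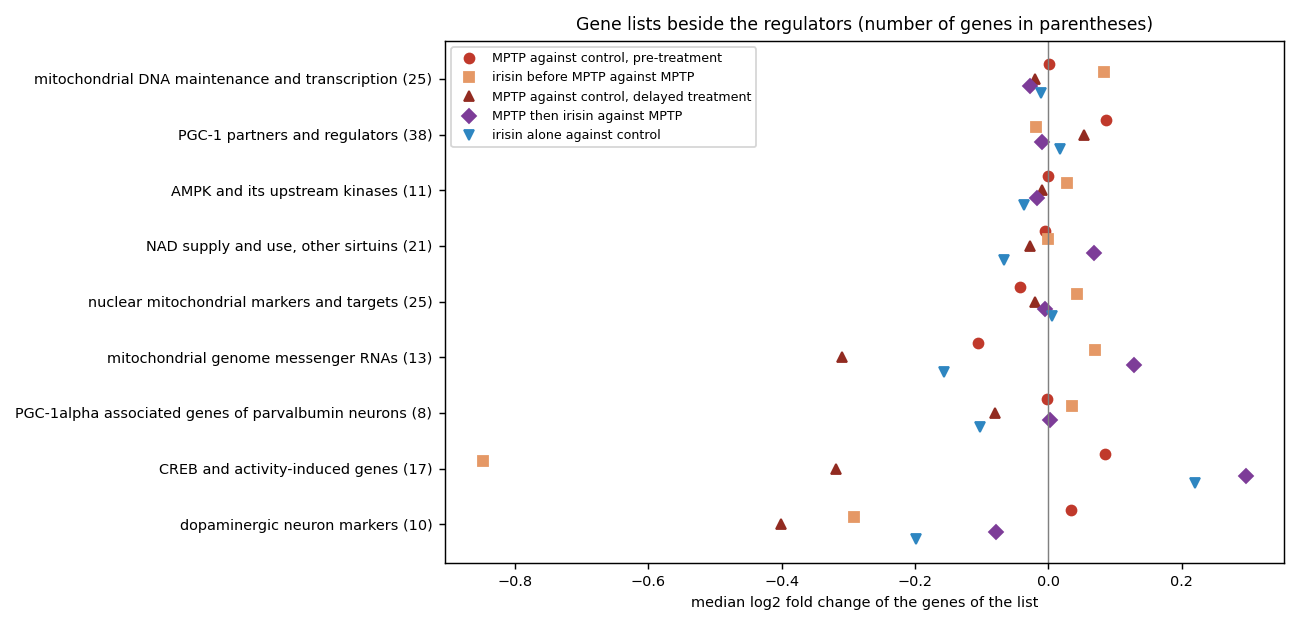
Median log2 fold change (x axis) of 9 gene lists around the regulators in 5 comparisons, marked by symbol and colour. In MPTP against control of the delayed treatment experiment, the mitochondrial messenger RNAs reach -0.31 and the dopaminergic neuron markers are at -0.40. The dopaminergic neuron markers are at 0.03 in MPTP against control of the pre-treatment experiment. In irisin before MPTP against MPTP, the CREB and activity-induced genes reach -0.85 and the dopaminergic neuron markers are at -0.29. The other lists of nuclear genes lie near 0.

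Markers of other cell types were counted as a check of the tissue. Of 10 dopaminergic markers, 5 were lower at an unadjusted p under 0.05 in MPTP against control of the delayed treatment experiment, beside 8.33% of all genes. Their summed level overlapped between control mice (592 to 913 CPM) and MPTP mice (609 to 942 CPM) of the pre-treatment experiment. In MPTP against control of the pre-treatment experiment, 1 was lower, beside 6.03% of all genes, and the list median was 0.03. There 5 of 6 choroid plexus markers were higher, with the 1 mouse given above standing apart. Of 7 microglia markers, 2 were lower in that comparison. In irisin before MPTP against MPTP, 2 of 7 endothelial markers were higher and 2 lower, 1 of 7 microglia markers was higher and 3 of 6 choroid plexus markers were lower, beside 6.22% of all genes. In any comparison, at most 2 of 7 astrocyte, 1 of 7 oligodendrocyte, 1 of 10 other neuron and 2 of 6 striatal markers had an unadjusted p under 0.05, beside 3.88% to 8.97% of all genes. No gene of these lists, nor of the dopaminergic, choroid plexus and blood lists, passed adjustment (edgeR) in any comparison.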

How the data were processed

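RNA was sequenced from the midbrain of 21 mice on a NovaSeq instrument. The authors deposited, for each experiment, a table of raw counts per gene made with featureCounts and FPKM values per gene in the same table. The submitters' processing notes name HISAT, StringTie, edgeR and mm9, while the deposited coordinates are those of GRCm38 (91.98% and 94.28% of genes had the start and end of GENCODE vM21). Groups were taken from the labels. From the counts, edgeR 4.0.16 in R 4.3.3 kept genes by filterByExpr (count 10, total 15), scaled by TMM and fitted the quasi-likelihood model to all groups of 1 experiment together, with Benjamini-Hochberg adjustment over all tested genes and a threshold of 0.05. The experiments were fitted apart. Fold changes and 95% intervals come from the same fit. FPKM was used only for levels between genes. The fits were also run on simulated counts, drawn gene by gene with edgeR's own estimates of the spread. The outcome is not given here and is not used as support. Replicates were compared by chi-square per gene, whose smallest value over 21 pairs of mice was 36.9, so none was a duplicate. Alternatives were DESeq2 1.42.0, median ratio scaling, no filter on low counts, only the 2 groups compared, a replicate block, and leaving out each mouse. The members, all of which are reported, and the lists were chosen with earlier results of these data known. Of the lists, genes past adjustment and at most the 2 genes with the smallest unadjusted p per list and comparison could be named. The 5 genes most like Ppargc1a were taken among genes with a mean of at least 1 CPM. Intervals cover the spread between mice.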

Additional observations from a re-analysis of the deposited data

How the results depend on the processing

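The text gives 53 fold changes of members (10 genes in 5 comparisons, Nrf1 in 2 more and Sirt1 in 1 more). In 588 refits of these, 562 kept their direction and their side of the threshold and 25 changed sign, all with a size of at most 0.14 in the reported fit. The other is Nrf1 in MPTP against control of the delayed treatment experiment, at 0.79 with DESeq2 (adjusted p = 0.0144). DESeq2 called more genes of any kind than edgeR, and the cause was not tested. Its counts were 91, 168 and 191 in MPTP against control, irisin before MPTP against MPTP and irisin before MPTP against control of the pre-treatment experiment, where edgeR called 5, 16 and 16. In the delayed treatment experiment, DESeq2 called 178, 34, 144, 35 and 62 genes in MPTP against control, MPTP followed by irisin against MPTP, irisin alone against control, MPTP followed by irisin against irisin alone and the interaction, where edgeR called 29, 1, 24, 1 and 9.

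With the fit restricted to the groups compared, the calls were 10 in MPTP against control of either experiment, 9 in MPTP followed by irisin against MPTP, 14 in irisin alone against control and 3 in MPTP followed by irisin against irisin alone, and members with an unadjusted p under 0.05 went from 0 to 1 in irisin before MPTP against MPTP and from 2 to 0 in MPTP followed by irisin against MPTP. With no filter on low counts, 9 genes were called in irisin before MPTP against control and 2 in MPTP followed by irisin against MPTP, where 1 member then had an unadjusted p under 0.05, as with DESeq2 and with the block. Without the filter Tfb2m in MPTP against control of the pre-treatment experiment was -0.0024.

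Replicate numbers did not pair the mice: deviations of same-numbered mice correlated at a median of -0.0117 over 9 pairs and -0.0202 over 18 pairs. With the replicate number as a block, 2, 8 and 2 genes were called in the pre-treatment comparisons, and 17 in MPTP against control and 14 in irisin alone against control of the delayed treatment experiment, where 1 and 0 members had an unadjusted p under 0.05.

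With each mouse left out in turn, genes called ran from 7 to 17 in MPTP against control, 10 to 26 in irisin before MPTP against MPTP and 5 to 20 in irisin before MPTP against control, and members with an unadjusted p under 0.05 from 0 to 3, 0 to 1 and 0 to 1. In the delayed treatment experiment, genes called ran from 16 to 35 in MPTP against control, 1 to 7 in MPTP followed by irisin against MPTP, 16 to 29 in irisin alone against control, 0 to 10 in MPTP followed by irisin against irisin alone and 7 to 19 in the interaction, and members from 1 to 2, 0 to 2, 0 to 1, 0 to 2 and 1 to 2. For all these alternative fits, the counts of members are given without the share of all genes at that level. Nothing particular to the members is read from them. Of the log2 fold changes of 10 members in all 8 comparisons, 80 in total, 24 changed sign in some alternative, each at most 0.14 in size in the reported fit. For 14 of the 53, the ranges were, in MPTP against control of the pre-treatment experiment, from -0.10 to 0.0370 for Esrra, -0.0371 to 0.18 for Polg, -0.13 to 0.0157 for Tfam and -0.0914 to 0.0520 for Tfb2m. In irisin before MPTP against MPTP they ran from -0.11 to 0.0343 for Esrra, -0.46 to 0.0597 for Nrf1, -0.0265 to 0.11 for Sirt1 and -0.13 to 0.0076 for Tfb2m. In MPTP followed by irisin against MPTP they ran from -0.0520 to 0.0414 for Gabpa, -0.0581 to 0.21 for Sirt1, -0.0710 to 0.12 for Sirt3 and -0.0884 to 0.0354 for Tfb2m, and in irisin alone against control from -0.0812 to 0.0822 for Sirt1 and -0.0508 to 0.0427 for Tfam. The rest were Ppargc1a (-0.0669 to 0.128), Ppargc1b (-0.0184 to 0.154) and Gabpa (-0.00423 to 0.0946) in irisin before MPTP against control, Nrf1 (-0.0558 to 0.0882), Gabpa, Esrra and Tfb2m in MPTP followed by irisin against irisin alone, and Esrra, Tfb2m and Sirt1 in the interaction. Depth limits Ppargc1b most, at 122 to 319 reads per mouse.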
